A study of Mus musculus with 8 samples.

Results

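Genes of the choroid plexus, the secretory epithelium that makes cerebrospinal fluid, and of the ependyma, the ciliated cells that line the brain ventricles, were followed in the brains of mice that drank trehalose, a disaccharide of glucose. The members were the 8 named genes Ttr, Kl, Clic6, Folr1, Enpp2, Aqp1, Otx2 and Foxj1. They were taken by gene symbol, out of 19321 symbols in the platform annotation, and were chosen with earlier results of these data known. Of these 8 genes, 7 had a probe, with 1 probe each, and all 7 probes lay above the blank spots on 8 of 8 arrays. No probe was paired with Enpp2, which encodes autotaxin, the enzyme that makes lysophosphatidic acid, so that gene was not analysed here. All mice were male C57Bl/6J, 9 weeks old, caged 3 to a cage and fasted for 6 h before perfusion with a heparin buffer. The groups were 2 mice on water (day 0), 3 mice given trehalose for 1 day and 3 mice given trehalose for 10 days, with 1 one-colour array per mouse. The labels give no dose of trehalose and do not identify cage-mates. They name cerebral cortex as the tissue taken, whereas the design text names a frozen left hemisphere. Because water mice were sampled at day 0 only, trehalose and the time of sampling cannot be told apart in any comparison with water.

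The choroid plexus filters plasma through leaky capillaries, and its epithelium moves ions and water into the ventricle while tight junctions between its cells form the barrier between blood and cerebrospinal fluid. It also secretes carrier proteins and takes up vitamins for the brain. The ependyma beats motile cilia that move the fluid along the ventricle wall. Within the members, Otx2 and Foxj1 encode transcription factors, Ttr a secreted carrier, Kl a co-receptor that can also be shed, Folr1 an uptake receptor, and Aqp1 and Clic6 proteins of water and ion passage.

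RefSeq promoter windows of build GRCm38.p6, from 250 bases before to 50 bases after an annotated start, were matched for 3 of the 8 genes, Kl, Aqp1 and Otx2, in 6 windows. A window of each of these 3 genes is shown. Otx2 and Kl belong to a set of 4 genes that is formed further on by their correlations across the arrays, and Aqp1 does not. Each is written 5′ to 3′ on the gene's strand, and capitals mark the annotated start base and any match to the motifs searched.
Kl, chr5:150952357-150952656, plus strand: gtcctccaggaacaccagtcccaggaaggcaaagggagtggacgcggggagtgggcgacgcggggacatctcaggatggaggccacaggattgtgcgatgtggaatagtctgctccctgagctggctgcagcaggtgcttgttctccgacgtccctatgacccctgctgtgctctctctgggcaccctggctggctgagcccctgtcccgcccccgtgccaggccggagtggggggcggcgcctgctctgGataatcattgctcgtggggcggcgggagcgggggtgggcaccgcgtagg
Aqp1, chr6:55336049-55336348, plus strand: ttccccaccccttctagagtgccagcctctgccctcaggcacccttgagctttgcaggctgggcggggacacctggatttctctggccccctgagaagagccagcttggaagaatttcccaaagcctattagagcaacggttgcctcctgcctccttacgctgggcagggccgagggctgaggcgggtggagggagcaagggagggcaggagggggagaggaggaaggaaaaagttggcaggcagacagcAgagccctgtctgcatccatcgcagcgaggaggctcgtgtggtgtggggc
Otx2, chr14:48665060-48665359, minus strand: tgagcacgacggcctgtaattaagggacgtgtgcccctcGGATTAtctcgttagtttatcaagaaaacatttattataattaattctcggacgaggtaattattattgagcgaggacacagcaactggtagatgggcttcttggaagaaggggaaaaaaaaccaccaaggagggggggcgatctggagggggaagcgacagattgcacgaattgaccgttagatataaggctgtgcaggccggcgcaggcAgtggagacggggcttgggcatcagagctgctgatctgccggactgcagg
The motifs were TAATCC, a site bound by OTX factors, TGTTTAC, a forkhead site of the family of FOXJ1, and TATAAA, each read on both strands. The printed Otx2 window, 1 of 4 for that gene, holds GGATTA, the reverse complement of the OTX motif, at position -211 from its start. Of all 32851 windows of this length, 7.06% hold the OTX motif, 3.65% the forkhead motif and 13.6% TATAAA. These letters were not found in the Kl and Aqp1 windows, and the other Otx2 windows held 1 match, a TATAAA at position -192 from the start in the window at chr14:48667595-48667894. The ependyma and motile cilia list described further on had 38 windows. Of these, 4 (10.5%) held the forkhead motif and 4 (10.5%) the OTX motif. Over the 46 windows of the choroid plexus epithelium list, 3 (6.52%) held the OTX motif and 1 (2.17%) the forkhead motif.

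Each array carried 27456 spots, 2736 of them blank, for 23473 probes, and between 86.3% and 92.0% of the probes exceeded the limit, set at the mean of the blank spots plus 2 SD. Values are log2 intensities after background correction and quantile normalization, and 21583 probes were tested. Correlations between arrays ran between 0.994 and 0.998 over the 28 pairs. Markers of cortical excitatory neurons were above the limit on all arrays for 14 of 14 genes with a probe. For the choroid plexus epithelium list this held for 34 of 35 genes (Lmx1a was above it on no array), and for the ependyma and motile cilia list for 31 of 34. A pair of arrays bear on every result that follows. Trehalose 1 day replicate 2 had the highest value of all 7 members, and water replicate 1 the lowest value of 3 of them, so comparisons are also given without each. The scanner's file headers give lines that join readings at its gains, and the slope of the first line fell into 2 classes, at 0.477 or 0.478 for water replicate 1 and trehalose 10 days replicates 1 and 3, and between 0.485 and 0.487 for the other 5 arrays. In tissue RNA of this kind, fewer cells of a type and less RNA per cell cannot be told apart.

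Ttr, the choroid plexus carrier of thyroid hormone and, through retinol-binding protein, of retinol, was measured far above the blank spots, at 845 to 1283 times their mean. Its spot medians were 24297 and 27588 in water mice, 25680, 38873 and 24863 after 1 day, and 31082, 25540 and 28187 after 10 days. One array stood out with the high value, 1 day replicate 2, and the 3 groups overlapped. After quantile normalization its log2 intensity was 14.62 and 14.85 in water mice, 14.56, 14.99 and 14.62 after 1 day, and 14.85 in each of the 3 mice after 10 days. The equal values at 10 days follow from the method, which gives arrays the same value at the same rank, and the Ttr probe ranked between 6 and 10 of the tested probes on every array. With arrays scaled to a common median instead, the mean was 14.67 ± 0.19 on water (SD, n = 2), 14.82 ± 0.34 after 1 day and 14.79 ± 0.12 after 10 days (SD, n = 3 each).

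Folr1, the receptor that carries folate across the choroid plexus, varied more over the 8 arrays than any other member, with an SD of 0.25 that stood at percentile 99.0 of all tested probes. Its log2 intensity was 7.07 and 7.33 on water, 7.06, 7.83 and 7.14 after 1 day, and 7.40, 7.37 and 7.25 after 10 days. The single high array at 1 day lay 0.60 above the mean of the other 7, and the other values at 1 day lay at the low end with water replicate 1. The spot itself measured 216 on that array, against 111 to 141 on the others.

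Kl encodes klotho, which makes FGF receptors responsive to FGF23 and is made in the choroid plexus and the kidney. Log2 intensity of Kl was 6.78 and 7.12 in water mice, 6.82, 7.41 and 6.96 after 1 day, and 7.17, 7.02 and 7.14 after 10 days. The spread over the arrays (SD 0.20, percentile 97.8 of all probes) again came with 1 day replicate 2 at the top and water replicate 1 at the bottom, and the water values lay 0.34 apart.

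Otx2, the homeodomain factor that choroid plexus development requires, gave 7.18 and 7.46 on water, 7.15, 7.67 and 7.38 after 1 day, and 7.46, 7.50 and 7.44 after 10 days. The 10-day mice lay within 0.07 of each other, and the water mice lay at the low end and among them, while the 1-day mice lay below and above them. Its SD over the arrays was 0.17, at percentile 96.1.

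Clic6, a chloride intracellular channel family protein expressed in the choroid plexus, measured 7.28 and 7.33 in water mice, 7.32, 7.54 and 7.42 after 1 day, and 7.42, 7.49 and 7.44 after 10 days. All 3 mice at 10 days lay above both water mice, as for 6.46% of all tested probes, and so did 2 of 3 mice at 1 day. Its SD of 0.09 stood at percentile 70.3 of all probes.

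Aqp1, the water channel of the apical membrane of the choroid plexus, had log2 intensities of 6.57 and 6.59 on water, 6.70, 6.87 and 6.76 after 1 day, and 6.65, 6.81 and 6.63 after 10 days. Every one of the 6 trehalose mice lay above both water mice, as for 2.75% of all tested probes. The Aqp1 spot was dim, at 2.30 to 3.17 times the blank mean, where the offset of the background correction compresses differences.

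Foxj1, the master regulator of motile cilia and the 1 ependymal gene among the members, measured 6.59 and 6.50 in water mice, 6.62, 6.81 and 6.68 after 1 day, and 6.62, 6.70 and 6.68 after 10 days. The trehalose groups again lay wholly above the water group, as for 2.75% of all tested probes, and 1 day replicate 2 was the highest. This spot too was dim, at 2.12 to 3.04 times the blank mean.

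**Figure D1:**
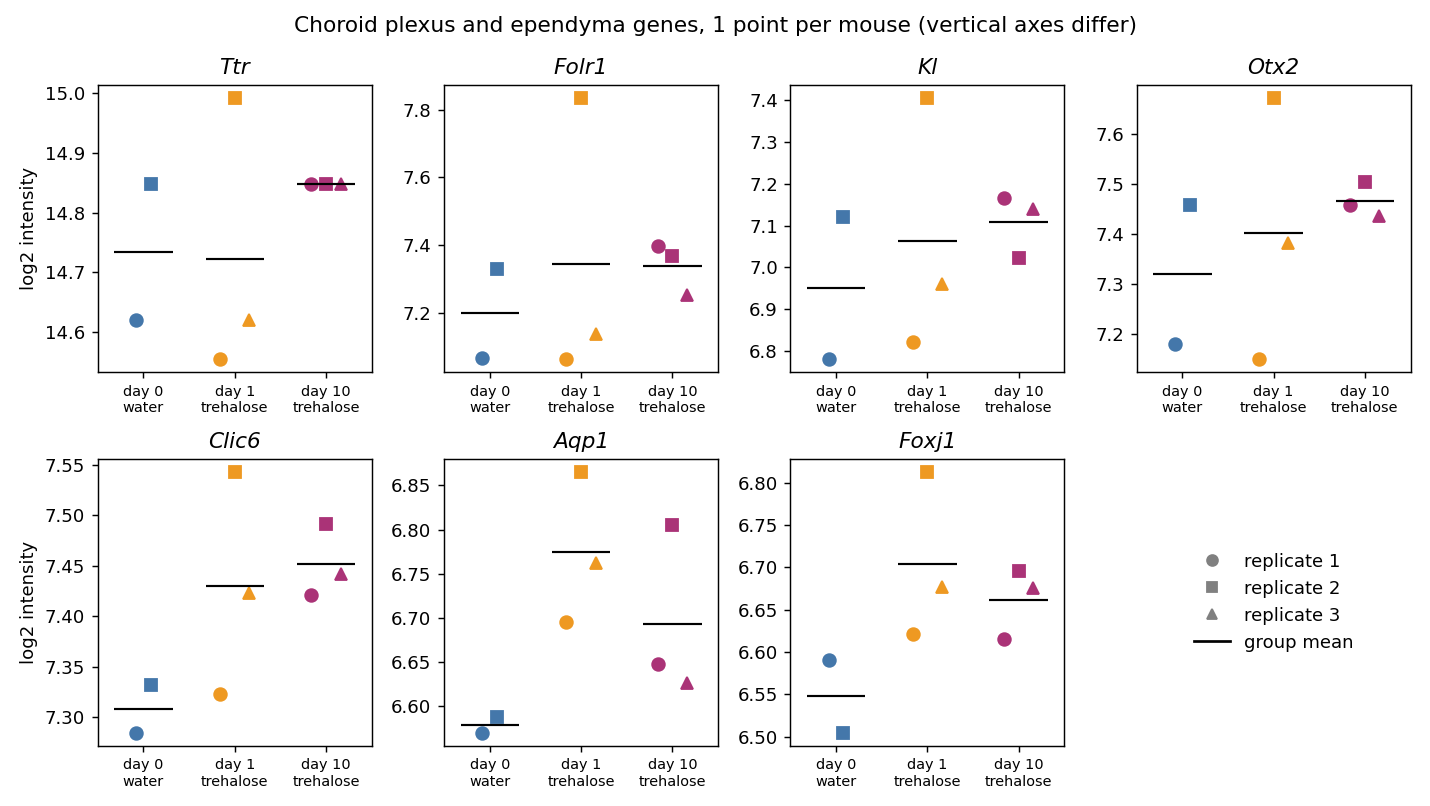
Log2 intensity of the 7 genes with a probe, 1 point per mouse, with water at day 0, 1 day and 10 days of trehalose from left to right, the marker shape giving the replicate and the bar the group mean. Replicate 2 at 1 day is the highest point of all 7 genes. For Aqp1 and Foxj1 all 6 trehalose mice lie above both water mice, as for 2.75% of all tested probes.

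After 1 day of trehalose, 6 of the 7 members had a higher mean than on water, by a median log2 change of 0.12, or 1.09-fold. Aqp1 averaged 6.77 ± 0.09 after 1 day (SD, n = 3) and 6.58 ± 0.01 on water (SD, n = 2), a log2 change of 0.20 with a standard error of 0.07 and a 95% interval of 0.04 to 0.35. Foxj1 averaged 6.70 ± 0.10 after 1 day and 6.55 ± 0.06 on water, a change of 0.16 with an interval of 0.01 to 0.30. The groups did not overlap for these 2 genes, higher after 1 day, and this was so for 8.97% of all tested probes. Their unadjusted p-values by limma were 0.0216 and 0.0368, a level that 2.02% of all probes reached in the higher direction. With Benjamini-Hochberg adjustment over all probes, limma called 0 of 21583 probes (0% called), and the adjusted p of every member was 1.00. An unadjusted p under 0.05 was reached by 787 probes, or 3.65%. Log2 changes of the others were 0.15 for Folr1, 0.12 for Clic6, 0.11 for Kl, 0.08 for Otx2 and -0.01 for Ttr, whose sign turned with median scaling (0.15) and in the authors' deposited table (0.085). Of all probes 49.7% had a higher mean after 1 day, with a median change of -0.0003. Without 1 day replicate 2, 3 of 7 members were higher (Clic6, Aqp1 and Foxj1) and the median was -0.05. Without water replicate 1 the count was 4 of 7 and the median 0.02.

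After 10 days all 7 members had a higher mean than on water, again by small amounts, between 0.11 and 0.16 on the log2 scale with a median of 0.14. Clic6 averaged 7.45 ± 0.04 after 10 days (SD, n = 3) and 7.31 ± 0.03 on water (SD, n = 2), a change of 0.14 (standard error 0.06, 95% interval -0.0034 to 0.29). For Clic6, Aqp1 and Foxj1 the 10-day and water mice did not overlap, higher after 10 days, against 6.46% of all probes. None of the 7 reached an unadjusted p under 0.05, which 1.23% of all probes did in the higher direction and 2% (432 probes) in either; limma called 0 probes after adjustment (0%), and each member's adjusted p was 1.00. The widest interval was that of Folr1, at -0.35 to 0.63 around a change of 0.14. A higher mean at 10 days was seen for 48.6% of all probes. Without water replicate 1 the count was 5 of 7 members and the median 0.0086; the other water mouse lay among the 10-day mice for Kl, Folr1 and Otx2 and level with them for Ttr.

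Between 10 days and 1 day of trehalose, 4 of 7 members had a higher mean at 10 days and the median change was 0.02. Ttr had the most positive value, 0.13, which was -0.02 with median scaling, and Aqp1 the most negative, -0.08 (95% interval -0.22 to 0.06). Kl, Otx2 and Clic6 measured 0.05, 0.06 and 0.02, and Folr1 and Foxj1 -0.01 and -0.04. All 7 members overlapped between the times, while 4.01% of all probes did not overlap and were higher at 10 days. Limma called 0 probes (0%), with 756 probes (3.5%) at an unadjusted p under 0.05, 1.85% of all probes in the higher direction, and no member among them. Over all probes 48.6% were higher at 10 days. Without 1 day replicate 2 the count was 6 of 7 with a median of 0.20, and without 1 day replicate 1 it was 1 of 7 with a median of -0.07.

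Taking the mean of both trehalose groups against water, all 7 members were higher, with a median log2 change of 0.13. Without water replicate 1 the count was 4 of 7 and the median 0.012, and without 1 day replicate 2 they were 6 of 7 and 0.05. With all arrays the change was 0.15 for Aqp1 (95% interval 0.01 to 0.30, unadjusted p = 0.0356 by limma), 0.14 for Foxj1 (0.01 to 0.26, unadjusted p = 0.0416) and 0.13 for Clic6 (0.0014 to 0.26, unadjusted p = 0.0482). An unadjusted p under 0.05 with a higher mean was found for 1.67% of all probes, and in either direction for 568 probes, or 2.63%. The 6 trehalose mice did not overlap the 2 water mice for Aqp1 and Foxj1, as for 2.75% of all probes in that direction. Limma called 0 probes after adjustment (0%), and members had an adjusted p of 1.00. Log2 changes of the other 4 ran between 0.05 (Ttr) and 0.14 (Folr1), and 48.6% of all probes were higher. Clic6, Aqp1 and Foxj1 stayed above 0 against water whichever array was left out, at either time and for both together, whereas the sign of Ttr, Kl, Folr1 or Otx2 turned without water replicate 1 or 1 day replicate 2 in at least 1 of these comparisons. This comparison shares its mice with those at 1 and 10 days and adds no further evidence to them.

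**Figure D2:**
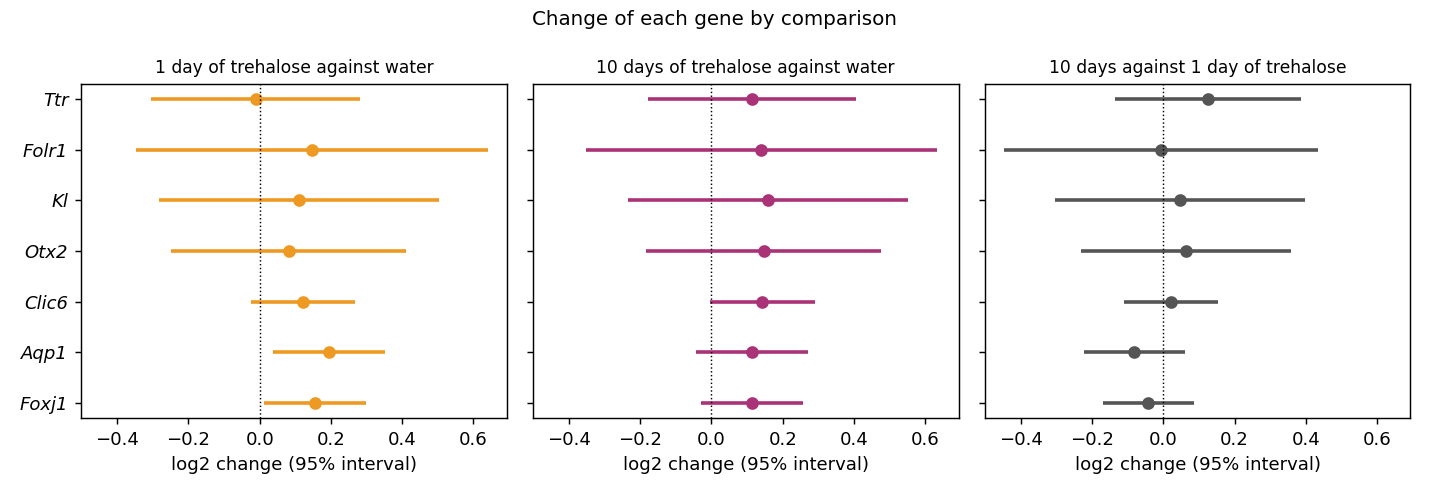
Log2 change of each gene (point) with its 95% interval from limma (line), for 1 day of trehalose against water, 10 days against water and 10 days against 1 day. Only the intervals of Aqp1 and Foxj1 at 1 day lie wholly above 0, and no adjusted p passed the threshold.

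The members were also compared with water within each gain line class. Among the lower slopes, the 2 mice at 10 days lay above the 1 water mouse for 7 of 7 members, with a median difference of 0.23. Among the higher slopes, the 3 mice at 1 day averaged above the 1 water mouse for 4 of 7 members, with a median of 0.02, and the 1 mouse at 10 days lay above it for 5 of 7, with a median of 0.05. With the class as a block in the fit, the median of the members was 0.08 at 1 day against water, 0.15 at 10 days against water and 0.08 at 10 days against 1 day. The part of the gain class in the members' values was not tested.

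One array carried much of the spread of the members. Averaged over the 7 genes, trehalose 1 day replicate 2 lay 0.26 above the mean of the 8 arrays on the log2 scale, while the other 7 arrays lay between -0.17 (water replicate 1) and 0.06 (10 days replicate 2). Its distance from the mean of the other 7 arrays was 0.60 for Folr1, 0.40 for Kl, 0.30 for Otx2, 0.25 for Ttr, 0.19 for Aqp1 and Foxj1 and 0.15 for Clic6. The second highest array was not the same for all genes: 10 days replicate 2 for 5 of them (for Ttr level with water replicate 2) and 10 days replicate 1 for Folr1 and Kl. The lowest value was that of water replicate 1 for 3 genes, of 1 day replicate 1 for another 3 and of water replicate 2 for Foxj1.

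Markers of other brain regions stood apart on the same array. In 1 day replicate 2 the striatum list lay 0.73 below its mean over the arrays, and the thalamus list 0.22 above. Water replicate 1 and 1 day replicate 1, where most members were low, had the striatum list 0.32 and 0.31 above its mean. The thalamus list on these 2 arrays lay at -0.21 and -0.02. The mean of the cortical excitatory neuron list stayed between -0.05 and 0.05 on all 8 arrays, while single markers could differ more. In 1 day replicates 1 and 2, Neurod6 measured 7.32 and 8.05, Tbr1 8.33 and 8.11, and Slc17a7 9.48 and 9.48. The mean of the hemoglobin and erythrocyte list ran from -1.06 (10 days replicate 2) to 1.03 (10 days replicate 1), with 0.37 in 1 day replicate 2.

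Counts against water were also taken for these lists and for those of other cell types. After 1 day 13 of 14 thalamus probes were higher than on water and after 10 days 14 of 14, with medians of 0.18 and 0.16. Striatum probes were lower for 13 of 13 after 1 day and for 9 of 13 after 10 days, with medians of -0.30 and -0.10. Hemoglobin and erythrocyte probes were higher for 5 of 5 at each time, and cortical excitatory neuron probes for 3 of 14 at each time. After 1 day, higher means were counted for 8 of 19 probes of leptomeninges and fibroblasts, 9 of 17 of oligodendrocytes, 4 of 13 of astrocytes, 2 of 12 of endothelium, 4 of 11 of microglia, 8 of 11 of hypothalamus and 4 of 5 of the subcommissural organ and pineal. After 10 days the counts were 11 of 19 for leptomeninges and fibroblasts, 12 of 17 for oligodendrocytes, 7 of 13 for astrocytes, 5 of 12 for endothelium, 2 of 11 for microglia, 5 of 11 for hypothalamus and 2 of 5 for the subcommissural organ and pineal. By limma 0 of these probes passed the test. The part of these other markers in the members' values was not tested.

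**Figure D3:**
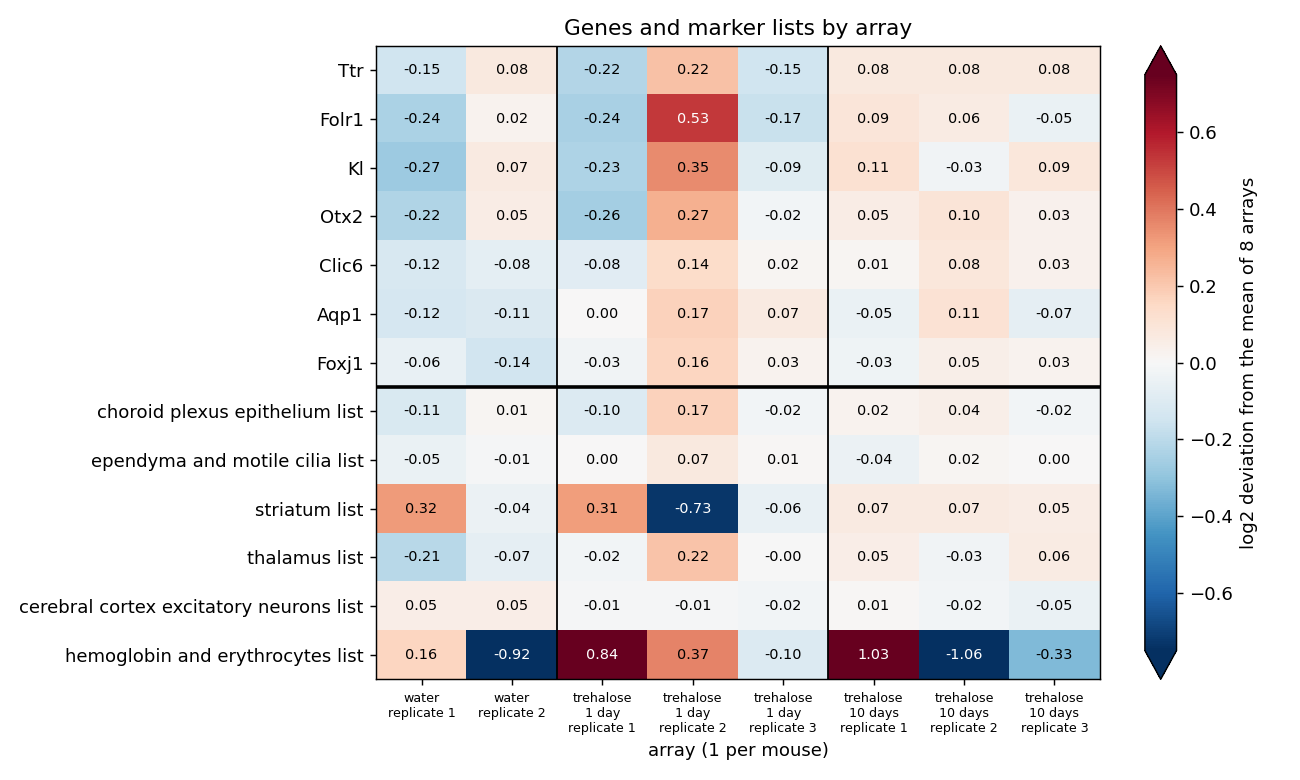
Log2 deviation of each gene, and of the mean of 6 marker lists, from its mean over the 8 arrays, with 1 column per array, in blue where lower and red where higher (colours end at 0.75 to each side, the printed values do not). Trehalose 1 day replicate 2 is red for all 7 genes and, at -0.73, blue for the striatum list.

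Ttr, Kl, Folr1 and Otx2 followed each other across the arrays. This set of 4 was formed from the 7 members by the correlations given here, so its high values are no separate support for it. Log2 intensities of Ttr, Kl, Folr1 and Otx2 correlated with Pearson's r between 0.89 and 0.93 in their 6 pairs over 8 arrays. Without 1 day replicate 2 these were 0.88 to 0.94, and with group means taken off over all 8 arrays they were 0.92 to 0.97. Values with both steps at once were not computed. Within the 10-day group the genes did not all follow each other. On its replicate 2 Kl was lowest (7.02) and Otx2 highest (7.50), while Ttr was level on the 10-day arrays. Aqp1 and Foxj1, an epithelial and a ciliated-cell gene, correlated with each other at 0.86 over 8 arrays and 0.73 without that array. Between the set of 4 and this pair r was 0.33 to 0.62 in 8 pairs. Without that array it was -0.07 to 0.27, and with group means taken off 0.43 to 0.69, where Aqp1 and Foxj1 gave 0.70. Clic6 correlated at 0.72 to 0.86 with the set of 4 and at 0.81 and 0.85 with Aqp1 and Foxj1. These values describe 8 arrays that share the gene's array, its normalization and, for the dim Aqp1 and Foxj1 spots, a signal close to the blanks, and they carry no test.

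**Figure D4:**
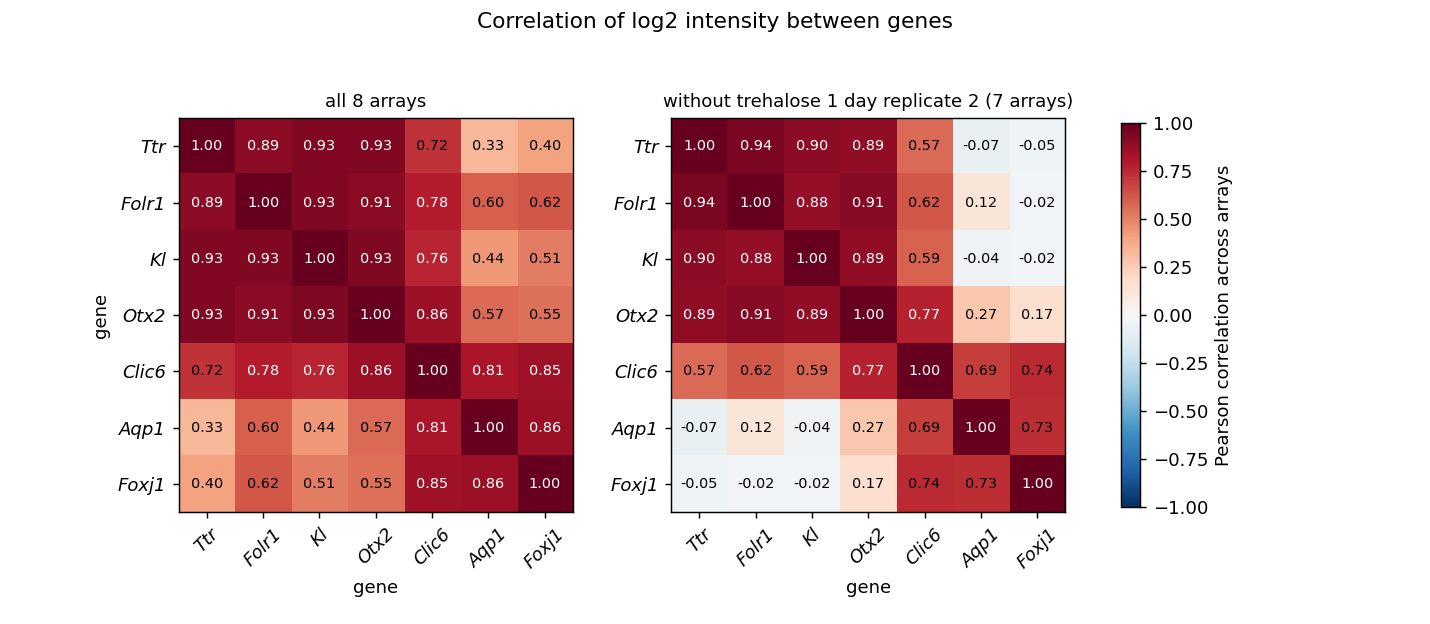
Pearson correlation of log2 intensity between each pair of genes across all 8 arrays (left) and across 7 arrays without trehalose 1 day replicate 2 (right). The block of Ttr, Folr1, Kl and Otx2, a set formed from these correlations, stays between 0.88 and 0.94 on the right. Its values with Aqp1 and Foxj1 lie between -0.07 and 0.27 there.

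Genes most like each member were taken by the same correlation over 8 arrays, among 1112 named probes with an SD of at least 0.15. As the 3 highest of so many candidates, these genes have high values partly by selection, and no test was made. For Otx2 they were Calml4 (0.95), Cldn2 (0.95) and Sostdc1 (0.94), all on the list of choroid plexus epithelium markers. Cldn2 encodes claudin-2, a tight junction protein that passes cations and water. Folr1 was closest to Ecrg4 (0.95), which encodes a secreted peptide of the choroid plexus, then to Rgs16 (0.94) and Calml4 (0.93). Kl was closest to Rgs16 (0.95), a regulator of G protein signalling on the thalamus list, then to Ecrg4 (0.94) and Otx2 (0.93). Ttr was closest to Kl and Otx2 (0.93 each) and to Gjb6 (0.92), a connexin of astrocytes. Clic6 came with Opn3 (0.95), Cldn2 (0.92) and Ecrg4 (0.91). Aqp1 was closest to Pgam1 (0.88), Daam1 (0.86) and Psmd13 (0.86), and Foxj1 to Opn3 (0.84), Slc17a6 (0.83) and Sec61b (0.83). The SD limit kept Aqp1, Clic6 and Foxj1 themselves out of the candidates, and Foxj1 correlated more with Aqp1 (0.86) and Clic6 (0.85) than with these 3. Without 1 day replicate 2 the values of the chosen genes ran from 0.63 (Foxj1 with Opn3) to 0.94 (Kl with Rgs16). Foxj1 with Slc17a6 was then at 0.65 and Folr1 with Rgs16 at 0.78.

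Ecrg4 shows how close the likeness was array by array. It deviated from its mean by -0.34 and -0.10 on water, by -0.29, 0.54 and -0.04 after 1 day, and by 0.12, 0.06 and 0.04 after 10 days, where Folr1 deviated by -0.24 and 0.02, by -0.24, 0.53 and -0.17, and by 0.09, 0.06 and -0.05. Cldn2 measured 6.21 and 6.50 on water, 6.33, 6.76 and 6.54 after 1 day, and 6.58, 6.58 and 6.52 after 10 days. The 10-day mice all lay above both water mice for Cldn2, as for 6.46% of all tested probes. The log2 change of Cldn2 was 0.21 (95% interval -0.08 to 0.49) and did not pass the test. Cldn2 was dim too, at 6.21 to 6.76, where the offset compresses differences.

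The wider list of choroid plexus epithelium markers, which holds 6 of the members among its 37 tested probes, leaned the same way as they did. It too was chosen with earlier results of these data known. After 1 day 27 of 37 probes were higher than on water, with a median log2 change of 0.06. After 10 days 29 of 37 were higher, with a median of 0.05, and 20 of 37 were higher at 10 days than at 1 day. The count between the times was 9 without 1 day replicate 1, 30 without 1 day replicate 2 and 33 in the authors' deposited table. Without the members the counts were 22, 23 and 16 of 31. By limma 0 of the 37 passed in any comparison. Without 1 day replicate 2, the count at 1 day was 14 of 37 and the median -0.03. Without water replicate 1, 20 of 37 were higher at each time, with medians of 0.0038 at 1 day and 0.0048 at 10 days. On 1 day replicate 2, 35 of 37 probes lay above their own mean and 25 had their highest value, while on water replicate 1 only 3 lay above their mean. Trpm3, which encodes a cation channel of the epithelium and hosts a microRNA, was 0.16 higher after 10 days (95% interval -0.04 to 0.35), and Cgnl1, which encodes a junction protein, was 0.12 higher at 10 days than at 1 day (-0.01 to 0.25).

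In the ependyma and motile cilia list, higher values than on water were more frequent at 1 day than at 10 days, a difference that was not tested as such. After 1 day 31 of its 37 tested probes, Foxj1 included, were higher than on water, with a median of 0.05. After 10 days 24 of 37 were higher, with a median of 0.02, and 11 of 37 were higher at 10 days than at 1 day, with a median of -0.03. None of the 37 passed the test in these comparisons. Here the count at 1 day was 29 of 37 without 1 day replicate 2 and 27 of 37 without water replicate 1. The count at 10 days was 17 of 37, with a median of -0.0065, without water replicate 1. Between the times the count was 15 of 37 and the median -0.0048 without 1 day replicate 2. Fam183b, a gene of motile cilia, measured 6.85 and 7.08 on water, 7.19, 7.34 and 7.22 after 1 day, and 7.05, 7.13 and 7.12 after 10 days. All 3 mice at 1 day lay above both water mice, as they did for 8.97% of all tested probes. The log2 change of Fam183b was 0.28 (95% interval 0.11 to 0.46, unadjusted p = 0.00558, adjusted p = 1.00 by limma). Dnali1, which encodes an axonemal dynein light intermediate chain, measured 7.34 and 7.25 on water, 7.43, 7.38 and 7.39 after 1 day, and 7.22, 7.28 and 7.22 after 10 days. For Dnali1 the change between 10 days and 1 day was -0.16 (95% interval -0.24 to -0.07). Rsph4a, which encodes a radial spoke head protein, differed by -0.08 (-0.16 to -0.01) between the same times. Rsph4a was dim, at log2 intensities of 6.46 to 6.57.

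Genes that act above Foxj1 or beside it in ciliated cells were counted without Foxj1 itself. Of 11 such probes of ciliated-cell transcription control, 6 were higher after 1 day, 5 after 10 days and 6 at 10 days against 1 day. Myb, which encodes a factor of early ciliated cells, was 0.07 higher after 1 day than on water and differed by -0.08 between 10 days and 1 day. Rfx3, whose product regulates ciliary genes with FOXJ1, was 0.11 higher after 10 days (95% interval -0.02 to 0.24). Tfdp1, the E2F dimer partner, had a change of 0.20 between 10 days and 1 day (0.04 to 0.35). None of these passed the test. Myb, at log2 intensities of 6.05 to 6.17, and Rfx3, at 6.10 to 6.35, were dimmer than Foxj1, where the offset compresses differences.

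Genes of transport and carriage were likewise counted without the members. Of 24 probes for cerebrospinal fluid ion and water transport, 10 were higher after 1 day and 13 after 10 days, with medians of -0.01 and 0.01. Kcna1, which encodes a voltage-gated potassium channel that neurons also express, measured 10.76 ± 0.05 after 1 day (SD, n = 3) and 10.92 ± 0.04 on water (SD, n = 2), a change of -0.16 (95% interval -0.26 to -0.06). Stk39, the SPAK kinase that controls chloride cotransporters, averaged 9.81 ± 0.03 after 1 day and 9.63 ± 0.09 on water, a change of 0.17 (0.05 to 0.29). Both had an adjusted p of 1.00 by limma. Of 19 probes for thyroid hormone and retinol carriage, the cargo of Ttr, 9 were higher after 1 day and 10 after 10 days. Stra6, the receptor for retinol-binding protein, was 0.11 higher after 1 day (0.01 to 0.21). Klf9, a thyroid hormone target, was 0.19 higher at 10 days than at 1 day (0.06 to 0.31). Klf9 averaged 10.30 on water, 10.17 after 1 day and 10.36 after 10 days. Rxrb, of the same list, differed from water by -0.10 after 10 days (-0.20 to -0.0037). None of these passed the test. Stra6 was dim, at log2 intensities of 6.39 to 6.57.

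The partners of Kl and Folr1 and the pathway of Enpp2 were counted in the same way. Among 15 probes of klotho relatives, FGF receptors and their pathway other than Kl, 7 were higher after 1 day and 10 after 10 days. Fgfr1, a receptor that klotho joins, was 0.12 higher after 1 day (95% interval -0.02 to 0.27). Fgfr2, another FGF receptor, differed from water by -0.19 after 1 day (-0.42 to 0.05). Slc20a1, a phosphate transporter, was 0.20 higher at 10 days than at 1 day (0.01 to 0.39). Slc20a1 averaged 9.59 on water, 9.43 after 1 day and 9.63 after 10 days. Among 20 probes of folate uptake and use other than Folr1, 13 were higher after 1 day and 12 after 10 days. Shmt2, the mitochondrial enzyme that passes a carbon from serine to folate, differed from water by -0.13 after 1 day (-0.22 to -0.03) and was 0.11 higher at 10 days than at 1 day (0.03 to 0.20). Slc46a1, the proton-coupled folate transporter, was 0.08 higher after 10 days (-0.05 to 0.20). In the absence of a probe for Enpp2, 18 probes of lysophosphatidic acid receptors, phosphatases and related genes gave 7 higher after 1 day, 9 after 10 days and 14 at 10 days against 1 day, with a median of 0.03 between the times. Lpar3, a receptor for that lipid, had changes of -0.07 at both times against water, with intervals of -0.15 to 0.01. Its log2 intensity, 5.92 to 6.01 over the arrays, lay below that of the dim Foxj1. By limma 0 probes of these 3 lists passed in any comparison.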

How the data were processed

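RNA was measured on 8 one-colour arrays. Per the file headers, the deposited scanner files hold an intensity per spot, the median of its pixels, read at several gains, with a local background. The scanner software is not given in the sources used here. Per the labels' protocols, RNA was amplified with amino allyl labelling and coupled to Cy5. The authors' deposited processed table, an intensity per probe on a linear scale, served as an alternative. Probes were named through the platform annotation, which gave 20690 probes 1 symbol and 2783 none.

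Log2 intensities were computed with limma 3.58.1 in R 4.3.3: normexp with an offset of 50, spots with a failed flag removed (10 probe spots), quantile normalization, and probes kept that lay above the blank mean plus 2 SD on at least 2 arrays. The local background was not subtracted, since it followed the spots themselves (r 0.943 to 0.985). All 8 arrays entered 1 fit of 3 groups with 5 residual degrees of freedom, contrasts of group means, eBayes and Benjamini-Hochberg adjustment over 21583 probes, threshold 0.05, two-sided. Labels do not say whether mice came from separate cages, so p-values measure the spread between these mice only. Precision is limited by the array number: the median 95% half-width was 0.130 at 1 day or 10 days against water. It was 0.117 between times and for both times against water. The fit was tested on simulated data.

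The genes and gene lists were chosen with earlier results of these data known. Genes named outside the members are the 2 with the lowest unadjusted p in each of 8 lists per comparison, of which a selection is printed, and the 3 most alike over the arrays. Ecrg4 is described array by array because it was nearest to Folr1. Alternatives were other background corrections, scalings, filters, variance settings, blocks and leaving out each array. The gain line class as a block was chosen after seeing the data.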

Additional observations from a re-analysis of the deposited data

How the results depend on the processing

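Each of the 28 log2 changes of the 7 genes (4 comparisons) was recomputed under 14 other settings and with each of the 8 arrays left out. No member passed the adjusted threshold under any of them. The smallest adjusted p of a member was 0.485, with the local background subtracted. Subtracting that background turned 8 signs: Ttr to 0.38 and Folr1 to -0.057 at 1 day against water, Kl to -0.027 and Folr1 to -0.19 at 10 days against water, Kl to -0.20, Aqp1 to 0.020 and Foxj1 to 0.017 at 10 days against 1 day, and Folr1 to -0.12 for both times against water. Median scaling turned Ttr to 0.15 at 1 day and to -0.023 between the times. In the authors' table Ttr at 1 day was 0.085. The change of Folr1 between the times, -0.01 as reported, was 0.00417 with an offset of 16, 0.018 with the blank mean subtracted, 0.000231 with no correction, 0.10 in the authors' table and 0.084 with the gain line class as a block. With the replicate block, Ttr at 1 day was 0.014. That block changed no other sign and no call. Deviations of same-numbered mice from their group means correlated at -0.03 to 0.26 in 7 pairs, 6 of them above 0.1 and 1 below 0. Those of differently numbered mice correlated at -0.31 to 0.21 in 14 pairs, 2 of them above 0.1 and 10 below 0. Not every pair exceeded 0.1 and the labels name nothing shared, so the numbers were not taken to pair the mice. With group means taken off, the deviations of the 2 water mice mirror each other. The pairs are therefore not separate observations, and their correlations cannot decide whether the numbers mark something shared. No sign turned under the other filters, 1 probe per gene, the other variance settings, array weights or the description number as a covariate. The count of all called probes was 1 at 10 days against water and 1 between the times with the blank mean subtracted, and likewise 1 and 1 with trend and robust variances, none of them a member.

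Leaving out each array gave the following ranges. The count of called probes ran from 0 to 2 at 1 day, at 10 days and for both times against water, with 2 only without water replicate 1. Members higher numbered 3 to 7 at 1 day, 5 to 7 at 10 days, 1 to 6 between the times and 4 to 7 for both times. Their medians ran from -0.053 to 0.21, 0.0086 to 0.23, -0.074 to 0.20 and 0.012 to 0.17. At 1 day against water the log2 change ran from -0.15 to 0.10 for Ttr, -0.060 to 0.28 for Kl, -0.097 to 0.29 for Folr1 and -0.057 to 0.22 for Otx2. At 10 days against water it ran from -7.3e-05 to 0.23 for Ttr and -0.013 to 0.33 for Kl. Between the times it ran from -0.074 to 0.22 for Kl, -0.032 to 0.078 for Clic6, -0.15 to 0.24 for Folr1, -0.061 to 0.20 for Otx2 and -0.083 to 0.013 for Foxj1. For both times against water it ran from -0.063 to 0.17 for Ttr, -0.036 to 0.30 for Kl and -0.025 to 0.25 for Otx2. The dim Aqp1 and Foxj1 spots limit what could be seen: their changes at 1 day were 0.41 and 0.34 with the blank mean subtracted.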
